A study of Mus musculus with 6 samples.

Results

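Chemokine and complement chemoattractant receptors were followed across 6 RNA libraries of RAW264.7 cells, a mouse macrophage line. The set held 9 genes of 55536 in the annotation, taken by name: Ccr1, Ccr2, Ccrl2, Cx3cr1, C3ar1, C5ar1, C5ar2, Cmklr1 and Fpr2. All 9 were found in the files. The study compared 3 libraries from cells given titanium (Ti) particles, the wear debris of metal implants, with 3 from cells given PBS (Ctrl), and asked how coding and non-coding RNA differed. The labels give C57BL/6 as the background strain for both groups, although the line is commonly described as of BALB/c origin. How much of the particles was given, and for how long, is not stated in the labels. All libraries came from 1 line and no label calls the replicates separate cultures. The p-values therefore reflect only the scatter of these 6 libraries, which may be technical.

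These receptors sit in the plasma membrane and tell a macrophage where to move. They are membrane-spanning helical proteins and, in most cases, couple to inhibitory G proteins that open the way to phosphoinositide 3-kinase gamma, calcium release and actin remodelling. Ccr1, Ccr2 and Cx3cr1 are chemokine receptors, C3ar1 and C5ar1 detect the complement fragments C3a and C5a, Cmklr1 detects chemerin and Fpr2 detects formyl peptides and lipid mediators. Ccrl2 and C5ar2 are atypical members: Ccrl2 binds chemerin and presents it to other cells, and C5ar2 binds C5a without the usual G protein signal.

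The libraries summed to 46276655, 37685950 and 48543341 rescaled estimated counts in Ti replicates 1, 2 and 3 and to 60242851, 41164138 and 42853904 in Ctrl replicates 1, 2 and 3. Levels are given as CPM, the rescaled counts scaled to TMM-adjusted library size, unless a sentence says that they are per length, and values by library run in the order of replicates 1, 2 and 3. A rescaled count of 3 was taken as the detection floor, 0.0498 to 0.0796 CPM over unscaled totals, for counting error only. Of 10 macrophage markers 10 reached the floor in at least 1 library, with summed levels of 6963 to 8791 CPM in Ti and 5614 to 7465 CPM in Ctrl libraries. Lyz2, at 3742 to 5359 CPM, made up most of this sum, and not every marker was even. Csf1r was at 1386, 144 and 435 CPM in the Ti libraries and at 471, 1460 and 1597 CPM in the Ctrl libraries. Itgam was at 11.9, 42.1 and 112 CPM in the Ti libraries and at 29.9, 60.5 and 55.8 CPM in the Ctrl libraries. Mertk, a marker of tissue macrophages, stayed at or below 0.129 CPM. Markers of T cells, B cells and epithelial cells summed to at most 0.0748, 0.0535 and 0.0214 CPM in any library, with Epcam at 0 counts in all 6. Fibroblast and endothelial markers summed to at most 0.328 and 0.873 CPM. The 4 dendritic cell markers summed to 1.47 to 2.51 CPM in Ti and 0.216 to 1.41 CPM in Ctrl libraries, without overlap, mostly through Zbtb46, while Ccr7 was at 0 counts in all 6. The 6 neutrophil markers summed to 0.279 to 1.07 CPM in Ti and 0.187 to 0.598 CPM in Ctrl libraries, with Ly6g, S100a9 and Elane at 0 counts in all 6. The part of such cells in the receptor levels was not tested. In bulk RNA, fewer cells with a transcript and less transcript per cell cannot be told apart.

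Ccr1, a receptor for Ccl3 and related chemokines, showed the widest gap between the groups, about 7.49-fold higher with Ti. Ccrl2, Ccr2, C3ar1 and C5ar1 were each about 1.86- to 1.99-fold higher. Cx3cr1, the fractalkine receptor, had no common direction, and C5ar2, Cmklr1 and Fpr2 were near the detection floor. None of the 9 passed an adjusted p of 0.05 in the fit over all genes (edgeR quasi-likelihood, Benjamini-Hochberg over 15376 genes), in which 0.026% of tested genes passed, 0.013% higher and 0.013% lower with Ti. At an unadjusted p under 0.05, 3 members were higher (Ccr1, Ccrl2 and C5ar1) and 0 lower, beside 3.42% and 3.34% of all tested genes, and DESeq2 called 1 member higher, Ccr1, beside 1.07% of its tested genes. When the fit took the replicate number as a block, the members under an unadjusted edgeR p of 0.05 were Ccr1, Ccr2, Ccrl2 and C3ar1, with C5ar1 no longer among them, and again none passed after adjustment. The filter on low counts kept 6 of the 9, each with at least 18 rescaled counts in every library.

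**Figure D1:**
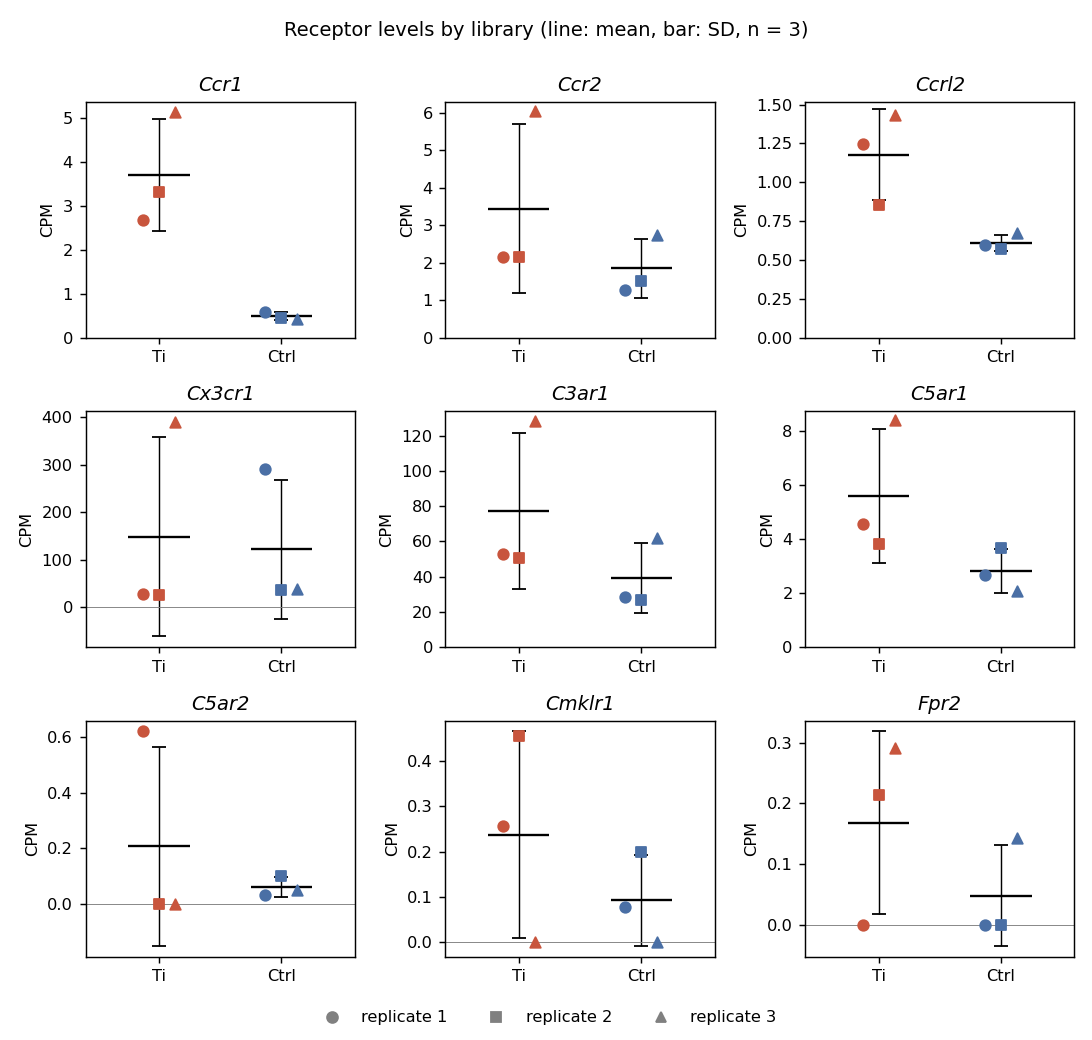
CPM (vertical axes, 1 scale per gene) of the 9 receptors in the 3 Ti libraries, left, and the 3 Ctrl libraries, right, with the group mean (line) and SD (bar) and a symbol for each replicate number. All 3 Ti points of Ccr1 (2.68 to 5.13 CPM) lie above its 3 Ctrl points (0.431 to 0.594 CPM), while Cx3cr1 has 1 high library in each group, at 390.4 CPM in Ti and 291 CPM in Ctrl.

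Ccr1 (ENSMUSG00000025804, GRCm38 chromosome 9, 123962124 to 123968692, minus strand) was at 2.68, 3.32 and 5.13 CPM in the Ti libraries, against 0.594, 0.449 and 0.431 CPM in the Ctrl libraries. The lowest Ti library was thus above the highest Ctrl library. Rescaled counts of Ccr1 were 125, 124 and 247 in Ti and 38, 18 and 18 in Ctrl. Its fold change thus rests on a low Ctrl level. The means were 3.71 ± 1.27 CPM in Ti and 0.491 ± 0.0892 CPM in Ctrl (SD, n = 3 each), a log2 fold change of 2.90 ± 0.35 (SE) with an unadjusted edgeR p of 0.000142. This was the 14th smallest p of 15376, and after adjustment it was 0.134. DESeq2 gave a log2 fold change of 2.91 ± 0.40 and an adjusted p of 4.39e-10. The gene has 1 annotated transcript, so annotated isoforms did not divide its reads, but any assembled transcripts at this locus were left out. None of its 50-base stretches occurs in a transcript of another gene, and its nearest relative on the chromosome, Ccr1l1, 8550 bases away, had 0 counts in every library.

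Ccrl2 (ENSMUSG00000043953, chromosome 9, 111054486 to 111057519, minus strand) was at 1.24, 0.856 and 1.43 CPM in the Ti libraries, against 0.594, 0.573 and 0.671 CPM in the Ctrl libraries. The groups did not overlap. Its log2 fold change was 0.94 ± 0.30, with an unadjusted edgeR p of 0.0187 and an adjusted p of 0.597. With no rescaling it was 0.83 ± 0.39, with an unadjusted edgeR p of 0.0789. Per length, however, Ti replicate 2 (0.389) lay below Ctrl replicate 3 (0.473). This is a low gene, with 58, 32 and 69 rescaled counts in the Ti libraries and 38, 23 and 28 in the Ctrl libraries.

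A pair of Ccrl2 transcripts held these counts, and each was the larger in some libraries of both groups. ENSMUST00000111888 made up 95.2%, all and 31.9% of the gene in the Ti libraries and 25.5%, 94.1% and 15.8% in the Ctrl libraries. ENSMUST00000199839, which starts further upstream, made up the rest. No library held more than 54.7 rescaled counts of either transcript, so these shares rest on few reads.

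Ccr2, the receptor for Ccl2 that brings monocytes into inflamed tissue (ENSMUSG00000049103, chromosome 9, 124101950 to 124113557, plus strand), was at 2.14, 2.14 and 6.05 CPM in the Ti libraries. It was at 1.28, 1.52 and 2.75 CPM in the Ctrl libraries, so the groups overlapped, and the libraries numbered 3 were the highest of each group. The log2 fold change was 0.90 ± 0.54 (edgeR adjusted p = 0.847), and 0.22 without Ti replicate 3. Its counts were spread over 4 transcripts, the most abundant of which, ENSMUST00000168841, held 36.3% of the gene over the 6 libraries. That transcript made up 17.9%, 51.6% and 43.4% of Ccr2 in the Ti libraries and 32.3%, 11.5% and 40.0% in the Ctrl libraries. Of the 50-base stretches of Ccr2, 1.91% also occur in transcripts of other genes, so a small part of its reads may not be its own.

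**Figure D2:**
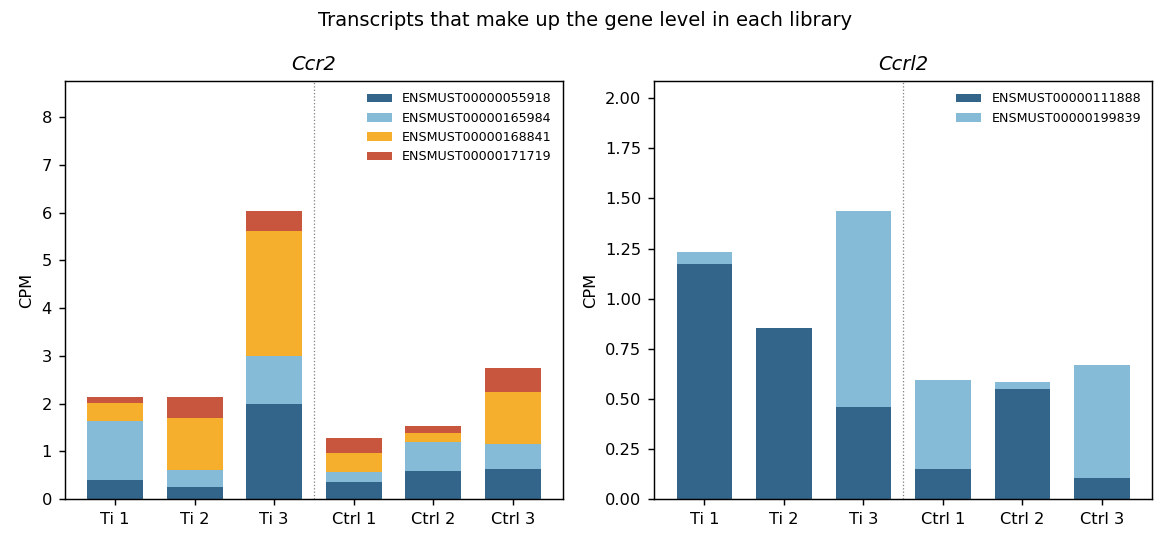
CPM (vertical axes) of each transcript of Ccr2, left, and Ccrl2, right, stacked for the 3 Ti and then the 3 Ctrl libraries. In Ccrl2 a single transcript, ENSMUST00000111888, holds 94.1% or more of the gene in Ti 1, Ti 2 and Ctrl 2 and 31.9% or less in Ti 3, Ctrl 1 and Ctrl 3; in Ccr2 the tallest column is Ti 3, at 6.05 CPM.

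Cx3cr1, which binds the membrane-anchored chemokine fractalkine (ENSMUSG00000052336, chromosome 9, 119901616 to 120069879, minus strand), was at 28.8, 25.3 and 390.4 CPM in the Ti libraries. In the Ctrl libraries it was at 291, 36.5 and 37.6 CPM. One library of each group was far above the other 2, and the highest of the 6 was 15.4 times the lowest. The means, 148 ± 209.8 CPM in Ti and 122 ± 147 CPM in Ctrl, therefore describe neither group. The log2 fold change was 0.28 ± 1.34 (edgeR adjusted p = 0.994), -2.17 without Ti replicate 3 and 2.00 without Ctrl replicate 1. DESeq2 gave no adjusted p for it.

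Both transcripts of Cx3cr1 that held counts were high in the same pair of libraries. ENSMUST00000064165 was at 28.8, 25.1 and 374 CPM in the Ti libraries and at 278, 36.5 and 37.4 CPM in the Ctrl libraries. The minor transcript ENSMUST00000215016 was at 0, 0.187 and 16.0 CPM in the Ti libraries and at 13.1, 0.0317 and 0.218 CPM in the Ctrl libraries. The third annotated transcript, which runs far past its neighbours, was at 0 in all 6. Over the span of the 2 transcripts with counts, the annotation holds 1 other gene, the antisense RNA Gm33858, which had at most 3 counts.

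C3ar1, the receptor for the anaphylatoxin C3a (ENSMUSG00000040552, chromosome 6, 122847138 to 122856161, minus strand), was at 52.7, 50.7 and 129 CPM in the Ti libraries, against 28.6, 26.8 and 62.0 CPM in the Ctrl libraries. The groups overlapped, because Ctrl replicate 3 lay above Ti replicates 1 and 2. Within each replicate number the ratio was much the same, 0.88, 0.92 and 1.05 on the log2 scale for numbers 1, 2 and 3. The log2 fold change was 0.98 ± 0.50 with an unadjusted edgeR p of 0.0967 and an adjusted p of 0.816. With the replicate number as a block it was 0.95 ± 0.08, with an unadjusted edgeR p of 0.000469 and an adjusted p of 0.284. It was 0.41 without Ti replicate 3, 1.49 without Ctrl replicate 3 and 0.91 without both libraries numbered 3. C3ar1 has 1 annotated transcript, and no 50-base stretch of it occurs in another gene's transcript.

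C5ar1, the main receptor for C5a (ENSMUSG00000049130, chromosome 7, 16246743 to 16259540, minus strand), was at 4.57, 3.80 and 8.42 CPM in the Ti libraries, against 2.69, 3.69 and 2.08 CPM in the Ctrl libraries. The groups did not overlap, but Ti replicate 2 exceeded Ctrl replicate 2 by little. The ratios within numbers 1, 2 and 3 were 0.77, 0.044 and 2.01 on the log2 scale, the widest scatter of the 5 receptors that were higher in every number. The log2 fold change was 0.99 ± 0.39 with an unadjusted edgeR p of 0.0418 and an adjusted p of 0.721. With the replicate block the unadjusted edgeR p was 0.114. The fold change was 0.57 when Ti replicate 3 was left out and 0.40 when both libraries numbered 3 were. Per length the groups overlapped, with Ti replicate 2 at 1.68 and Ctrl replicate 2 at 1.78. Transcript ENSMUST00000168818 held 99.7% of its counts.

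**Figure D3:**
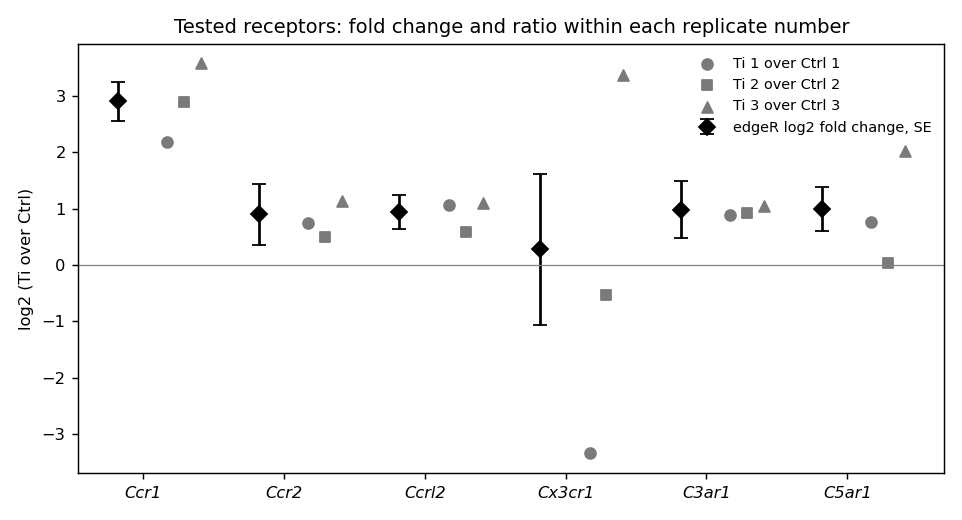
Log2 ratio of Ti over Ctrl (vertical axis) for the 6 receptors that passed the filter on low counts: black diamonds are edgeR log2 fold changes with their standard errors, grey symbols the ratio of same-numbered libraries. The 3 ratios of C3ar1 lie between 0.88 and 1.05, those of C5ar1 between 0.044 and 2.01, and those of Cx3cr1 between -3.34 and 3.37.

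C5ar2, whose gene lies 2588 bases from C5ar1 on the same strand, had 29, 0 and 0 rescaled counts in the Ti libraries and 2, 4 and 2 in the Ctrl libraries. A single Ti library thus held all of the Ti signal, and a count of 0 allows up to 0.0796 CPM in Ti replicate 2 and 0.0618 CPM in Ti replicate 3. The difference of the means was 0.148 CPM (two-sided exact permutation p = 1, n = 3 each), and -0.0596 CPM without Ti replicate 1. Cmklr1, which directs cells towards chemerin, had 12, 17 and 0 counts in the Ti libraries and 5, 8 and 0 in the Ctrl libraries (exact permutation p = 0.5). It was at 0 in both libraries numbered 3 and higher with Ti in numbers 1 and 2. Fpr2 had 0, 8 and 14 counts in the Ti libraries and 0, 0 and 6 in the Ctrl libraries (exact permutation p = 0.4). With 3 libraries against 3 this test cannot go below 0.10, so it could not have passed for these 3 receptors, whatever their depth. Of the 50-base stretches of Fpr2, 31.5% also occur in other genes, mostly in the pseudogene Gm5966, so its reads are not clearly its own.

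Set against all genes, 3 of the 9 receptors had Ti libraries wholly above the Ctrl libraries (Ccr1, Ccrl2 and C5ar1), and 6.63% of all tested genes did. This share and those that follow are over genes that passed the filter on low counts, as 6 of the 9 did. The Ctrl libraries lay wholly above for 0 of the 9, beside 6.71% of all tested genes. 5 of the 9 were higher with Ti in all 3 same-numbered pairs (Ccr1, Ccrl2, C5ar1, Ccr2 and C3ar1), beside 18.3% of all tested genes. All 6 tested members had a positive log2 fold change, as did 50.9% of all tested genes, and 4 reached 0.9 (Ccr1, Ccrl2, C3ar1 and C5ar1), as did 4.18%. The cut of 0.9 was not a planned threshold. It lies close to the members' own values, with Ccr2 just under it at 0.899 and Ccrl2 just above at 0.944. The median of the 6 tested members was 0.96, and that of all tested genes 0.0053. With Ti replicate 3 left out, the median was 0.57 over the 7 members that then passed the filter. The members, and the lists compared further on, were chosen with earlier results of these data known. These comparisons with all genes are therefore a description and not independent support.

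Per length, C3ar1 and Cx3cr1 were the most abundant of the 9 and the low receptors formed a graded series. On the length-normalised scale (per kilobase of exon, scaled like TPM over annotated transcripts), the median over the 6 libraries was 15.0 for C3ar1, ranging from 7.60 to 39.8. It was 12.8 for Cx3cr1, ranging from 7.56 to 138. C5ar1 followed at 1.73, with Ccr1 at 0.772, Ccr2 at 0.735 and Ccrl2 at 0.431. Fpr2, Cmklr1 and C5ar2 came last at 0.0953, 0.0595 and 0.0147. The ranges of Cx3cr1 and C5ar1 were apart, and every other pair of neighbours in this order overlapped. With Ti, Ccr1 averaged 1.67 ± 0.641 on this scale, above the 1.20 ± 0.808 of Ccr2, while in Ctrl Ccr1 averaged 0.220 ± 0.0321, below the 0.698 ± 0.314 of Ccr2 (SD, n = 3 each); that change of order was not tested.

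The stretches around the transcription starts of Ccr1, Ccrl2 and C3ar1 are shown because these receptors had, in turn, the widest gap, separated groups with 2 alternative starts, and the most even ratio across replicate numbers. Each covers 250 bases before and 50 after the start, written 5′ to 3′ on the gene's strand, from RefSeq on GRCm38.p6. Capitals mark matches to motifs searched on both strands: the kappa-B consensus, AP-1 (TGANTCA), the PU.1 core (GAGGAA) and the interferon response core (GAAA, any 2 bases, GAAA). Ccr1 lies at chr9:123968643-123968942, minus strand, and its capitals mark a PU.1 core.
Ccr1: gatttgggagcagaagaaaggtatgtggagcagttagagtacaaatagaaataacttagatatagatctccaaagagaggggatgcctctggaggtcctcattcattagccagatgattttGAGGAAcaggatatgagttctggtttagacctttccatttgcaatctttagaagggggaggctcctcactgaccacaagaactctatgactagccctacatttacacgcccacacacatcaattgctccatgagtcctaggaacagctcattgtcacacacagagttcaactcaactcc
Ccrl2 lies at chr9:111057469-111057768, minus strand, at the start of ENSMUST00000199839, and its capitals mark a kappa-B consensus.
Ccrl2: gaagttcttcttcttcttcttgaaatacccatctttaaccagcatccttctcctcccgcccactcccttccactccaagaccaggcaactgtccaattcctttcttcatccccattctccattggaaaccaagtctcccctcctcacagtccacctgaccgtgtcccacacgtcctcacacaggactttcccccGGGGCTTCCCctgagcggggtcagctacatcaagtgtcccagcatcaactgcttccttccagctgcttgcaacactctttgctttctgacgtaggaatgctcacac
C3ar1 lies at chr6:122856108-122856407, minus strand, and its capitals mark an AP-1 motif.
C3ar1: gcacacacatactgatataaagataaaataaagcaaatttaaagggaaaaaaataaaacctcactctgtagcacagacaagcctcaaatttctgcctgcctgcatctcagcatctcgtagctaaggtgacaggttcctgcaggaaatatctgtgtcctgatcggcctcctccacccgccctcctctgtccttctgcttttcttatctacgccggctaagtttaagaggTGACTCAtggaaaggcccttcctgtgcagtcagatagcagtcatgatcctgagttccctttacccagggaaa

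All 9 receptors matched at least 1 promoter of the RefSeq table. Among 32851 promoters of this length, 28.3% held the PU.1 core, 7.81% AP-1, 4.51% the kappa-B consensus and 3.44% the interferon response core. Of the 9 receptors only Ccrl2 held the kappa-B consensus, 56 bases before the upstream start, and only C3ar1 held AP-1, 22 bases before its start. The Ccrl2 window shown belongs to the transcript with 41.6% of the gene's counts, and the window of ENSMUST00000111888, with 58.4%, held none of the 4 motifs. The PU.1 core was in Ccr1, Cmklr1, Fpr2 and the downstream start of C5ar2, whose transcript held 3.61% of that gene's counts, and none of the 9 held the interferon response core. The Cmklr1 window belongs to ENSMUST00000142854, which had 0 counts in all 6 libraries. The matches are a description of letters within these windows and not of binding.

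Of 31 other chemoattractant receptors 15 reached the floor in at least 1 library and 11 had 0 counts throughout. Over the 7 that were tested the median log2 fold change was 0.01, and with 1 library left out it lay between -0.16 and 0.43. With no filter on low counts it was 0.57 over 20 genes, and with no rescaling 0.41 over 13. Of the 7, 0 passed by edgeR adjusted p, and 0 were called by DESeq2. At an unadjusted edgeR p under 0.05 there were 0, beside 3.42% higher and 3.34% lower of all tested genes. Ptafr, the receptor for platelet-activating factor, was at 20.9, 17.4 and 18.2 CPM in the Ti libraries and at 21.1, 22.6 and 17.6 CPM in the Ctrl libraries, above most of the 9 receptors. Its log2 fold change of -0.12 ± 0.16 and that of Xcr1, 0.57 ± 0.36, did not pass.

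Among ligands of the 9 receptors 10 of 16 listed were tested, 8 of them positive, and the median log2 fold change was 1.51. 0 passed over all genes by edgeR. At an unadjusted edgeR p under 0.05, 5 were higher, beside 3.42% of all tested genes. DESeq2 called 4 higher, beside 1.07% of its tested genes. Ccl9, a ligand of Ccr1, was at 432, 506 and 632 CPM in the Ti libraries and at 222, 225 and 262 CPM in the Ctrl libraries (log2 fold change 1.15 ± 0.16). Ccl2, the main ligand of Ccr2, was at 30.5, 25.8 and 51.2 CPM in the Ti libraries and at 11.9, 9.42 and 5.60 CPM in the Ctrl libraries (2.00 ± 0.38). In both genes every Ti library exceeded every Ctrl library. Ccl7, another ligand of Ccr2, had 22, 17 and 40 rescaled counts in the Ti libraries and 4, 2 and 2 in the Ctrl libraries (3.38 ± 0.44), so its Ctrl level is near the floor. With Ti replicate 3 left out, the ligands' median was 0.33. C3, the source of C3a, was at 6.65, 6.40 and 12.7 CPM in the Ti libraries and at 6.08, 6.75 and 7.76 CPM in the Ctrl libraries, a log2 fold change of 0.32 ± 0.31 that did not pass. Hc, which encodes C5, and Cx3cl1, which encodes fractalkine, were below the floor in all 6 libraries, and Rarres2, which encodes chemerin, had at most 0.300 CPM.

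Most signalling genes below the receptors were abundant, and their fold changes lay on both sides of 0. Rgs18 had at most 0.407 CPM, and Grk3 had 0 counts in all 6 libraries. Of 30 listed 29 were tested, their median log2 fold change was -0.05, and 0 passed by edgeR. At an unadjusted edgeR p under 0.05, 2 were higher and 0 lower, beside 3.42% and 3.34% of all tested genes. DESeq2 called 2 higher, beside 1.07% of its tested genes. Rgs16, a regulator that shortens G protein signals, was at 41.6, 45.5 and 29.2 CPM in the Ti libraries and at 7.33, 3.14 and 8.45 CPM in the Ctrl libraries, a log2 fold change of 2.62 ± 0.41 (edgeR adjusted p = 0.206). Rgs1, of the same family, had 1.26 ± 0.30 (edgeR adjusted p = 0.425), with separated groups. Gnai2, the main inhibitory G protein alpha subunit of leukocytes, was at 252, 234 and 259 CPM in the Ti libraries and at 297, 277 and 277 CPM in the Ctrl libraries. Every Ti library lay below every Ctrl library, and the log2 fold change was -0.19 ± 0.09 (edgeR adjusted p = 0.761).

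Of 19 other complement genes 15 were tested, their median log2 fold change was 0.40, and 0 passed by edgeR. At an unadjusted edgeR p under 0.05, 3 were higher and 1 lower, beside 3.42% and 3.34% of all tested genes. DESeq2 called 1 of these 15 lower, beside 129 of the 15291 genes to which it gave an adjusted p. Cfp, properdin, which stabilises the alternative pathway of complement, had 0.69 ± 0.23 and Itgax, the alpha chain of complement receptor 4, 1.12 ± 0.43, and they did not pass. With Ti replicate 3 left out, the list's median was 0.17.

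**Figure D4:**
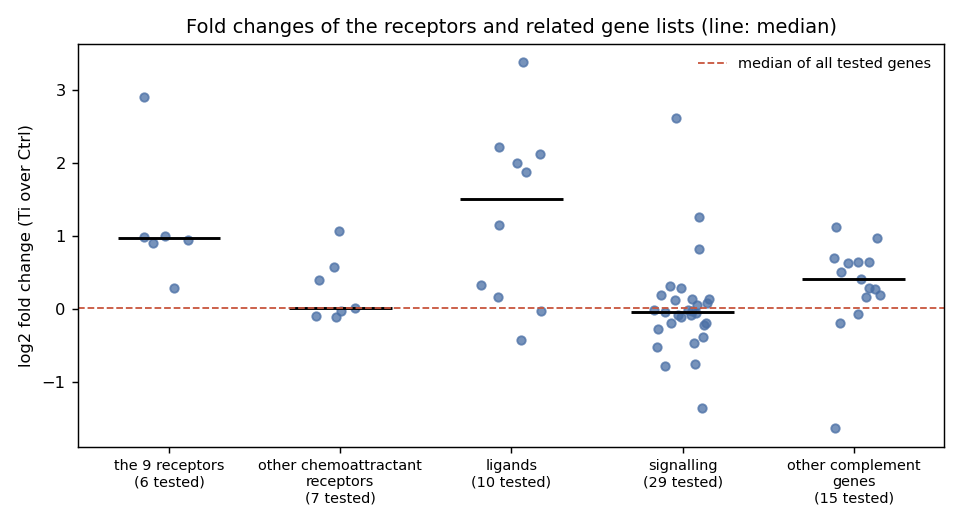
Log2 fold change of Ti over Ctrl (vertical axis) for each tested gene of the 9 receptors and of 4 related lists, with the list median as a black line and the median of all tested genes as a dashed line. The medians are 0.96 for the receptors, 0.01 for other chemoattractant receptors, 1.51 for ligands, -0.05 for signalling genes and 0.40 for other complement genes.

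The genes most like the 3 receptors with the smallest p were sought among 8786 protein-coding genes with a mean of at least 5 CPM, by Pearson r of log2 CPM over the 6 libraries, as a description. For Ccr1 they were Lyn (r = 0.992), a Src family kinase, Acod1 (0.986), which makes itaconate, and Adora2b (0.986), an adenosine receptor. Acod1 was at 60.8, 56.8 and 128 CPM in the Ti libraries and at 11.7, 10.9 and 13.2 CPM in the Ctrl libraries. Lyn, the nearest, differed much less, at 267, 259 and 292 CPM in the Ti libraries and at 203, 199 and 195 CPM in the Ctrl libraries. For Ccrl2 they were Anpep (0.994), Gfod1 (0.992) and Ldah (0.991), and for C5ar1 Gbp7 (0.996), Usp25 (0.979) and Psme4 (0.972). An r of at least 0.9 was reached by 135 genes (1.54%) with Ccr1, 129 (1.47%) with Ccrl2 and 52 (0.592%) with C5ar1, over 6 points that share their libraries. The 3 receptors were picked by their p for Ti against Ctrl, so a high r can restate the difference between the groups.

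**Figure D5:**
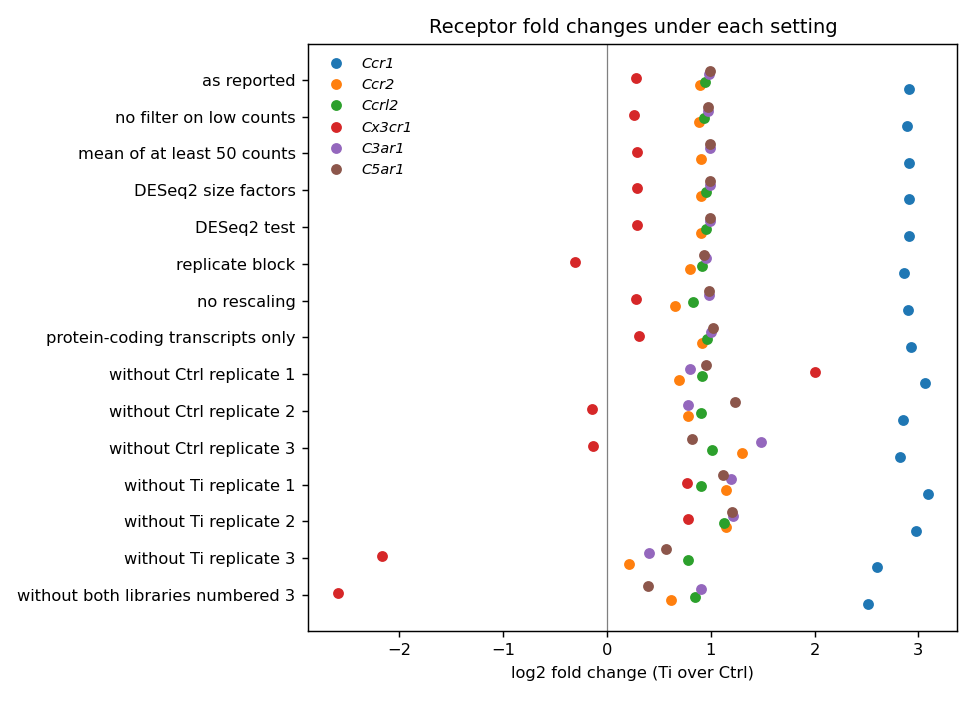
Log2 fold change of Ti over Ctrl (horizontal axis) of the 6 tested receptors under the reported fit and 14 other settings (rows), with 1 colour per gene. Ccr1 stays between 2.51 and 3.09, Ccr2, Ccrl2, C3ar1 and C5ar1 stay above 0, and Cx3cr1 runs from -2.59 to 2.00.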

How the data were processed

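Each file, as deposited by the authors, gives whole numbers for 187351 transcripts and names no unit. Values the authors deposited were read here as estimated counts, and every CPM, floor and p-value rests on that reading. HISAT2, StringTie and build mm9 are named in the submitters' processing notes; the tool that made the counts and all versions were not stated there. All 141862 Ensembl identifiers matched GENCODE vM21 (GRCm38), which gave names and coordinates. The other 45489 transcripts, assembled and without a gene, held 36.9% to 51.2% of the deposited totals and were left out. Low deposited values grew with genomic span: across 9 bins of rising span-to-exon ratio, the lower quartile of values above 0 went up from 4 to 198. Rows were therefore scaled by the ratio of exon length to genomic span before summing by gene and rounding. This correction is approximate, and rescaled counts are not reads. The gene test was edgeR 4.0.16 in R 4.3.3 (quasi-likelihood, TMM, filterByExpr) with Benjamini-Hochberg adjustment at 0.05, and the code was tested on simulated data. A standard error is the size of the log2 fold change over the square root of F. Log2 CPM used a prior count of 2. Tables and plots used Python 3.11.15.

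With rescaled values read as counts, no 2 libraries of a group agreed within sampling noise (chi-square per degree of freedom 147 to 508). Rescaled counts are not reads, so this check cannot separate technical from other differences. Same-numbered Ti and Ctrl libraries deviated together, with correlations of 0.109, 0.143 and 0.264 for numbers 1, 2 and 3 over 15376 genes. Libraries of unlike number had correlations from -0.168 to 0.0387. Deviations from a group mean cancel out within the group, so these are not separate evidence from the same-number correlations. From the same-number correlations the numbers may pair the libraries, a reading that comes from the data and was not tested. The main fit had no block, so its standard errors and p-values ignore any such pairing. The block was used as an alternative. The members, the lists and the rule for named genes (all members, list members past the threshold, the 3 smallest p of each list, and the 3 genes most like each of the 3 members of smallest p) were chosen with earlier results of these data known. Alternatives were no filter, a filter at 50 mean counts, the size factors and the test of DESeq2 1.42.0, the replicate block, no rescaling, protein-coding transcripts only, each library left out, and, added after the data were seen, both libraries numbered 3 left out. Cx3cr1's nearest genes and other genes named in the closing section were also chosen after their values were seen. Some genes that the rule names are not reported here.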

Additional observations from a re-analysis of the deposited data

How the results depend on the processing

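No member was called under any setting except the DESeq2 test, which called 1, Ccr1 (adjusted p = 4.39e-10, against 0.127 to 0.366 in the edgeR fits). Ccr1, Ccr2, Ccrl2, C3ar1 and C5ar1 kept a positive log2 fold change under every alternative that gave a value. Ccrl2 had none with a mean of at least 50 counts. Cx3cr1 turned negative with the replicate number as a block (-0.31), without both libraries numbered 3 (-2.59) and in 3 of the fits that left out 1 library, whose values ran from -2.17 to 2.00. With the replicate block 0 genes were called higher and 0 lower (775 and 665 at an unadjusted p under 0.05), and no call on a member changed; the edgeR adjusted p was 0.284 for C3ar1 and 0.361 for Ccr1. Genes called higher and lower, 2 and 2 as reported, numbered 163 and 129 by DESeq2, 1 and 1 with protein-coding transcripts only, and 0 and 0 without both libraries numbered 3 (edgeR; 750 and 679 at an unadjusted p under 0.05). With no filter on low counts 1 was called lower. Leaving out 1 library gave 1 to 8 higher and 0 to 7 lower. Members higher at an unadjusted p under 0.05, 3 as reported, numbered 1 without Ctrl replicate 1, Ti replicate 1 or Ti replicate 3. Genes higher at that p numbered 408 of 15770, 453 of 15722 and 558 of 15730 in those fits, in that order. With the block 4 members were under it (C3ar1 and Ccr2 in, C5ar1 out), beside 775 of 15376 genes. With no rescaling 2 members were under it (Ccrl2 out), beside 502 of 17256 genes. For these counts the cause was not tested. Low counts of C5ar2, Cmklr1 and Fpr2 limit what can be detected.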

Other observations

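Cx3cr1 was high in Ti replicate 3 and Ctrl replicate 1, a pattern that some other genes shared. Among tested genes with a mean of at least 1 CPM, 3 besides Cx3cr1 had both libraries above 5 times the highest of the other 4, a rule chosen after the values were seen. Oas3, which encodes an antiviral 2′-5′ oligoadenylate synthetase, was at 10.8, 9.18 and 495 CPM in the Ti libraries and at 238, 10.4 and 19.7 CPM in the Ctrl libraries. Tmem127 was at 3.84, 0.509 and 44.8 CPM in the Ti libraries and at 32.3, 4.73 and 0.862 CPM in the Ctrl libraries. The other was Gm49284, at no more than 3.51 CPM. By Pearson r of log2 CPM over the 6 libraries the nearest genes to Cx3cr1 were Oas3 (0.992), Gtf2e1 (0.989) and Tlr4 (0.987), of 8785 protein-coding genes. An r of at least 0.9 with Cx3cr1 was reached by 34 of these genes (0.387%). Tlr4, the lipopolysaccharide receptor, was at 13.7, 19.0 and 113 CPM in the Ti libraries and at 86.2, 21.3 and 22.8 CPM in the Ctrl libraries. The high libraries belong to different groups and different replicate numbers. Their rescaled totals, 48543341 and 60242851, were the highest of each group, but in deposited totals Ti replicate 1 (700362158) exceeded Ti replicate 3 (573082106). The part of depth in this pattern was not tested.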
